A study of Homo sapiens with 22 samples.

Results

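The genes described here encode 9 subunits of the nuclear corepressor complexes that carry lysine deacetylases to chromatin: MTA1, MTA2, MTA3, CHD4 and MBD3 of NuRD, RCOR1 and KDM1A of CoREST, SIN3A of the SIN3 complex and NCOR1 of the NCoR complex. They were chosen by symbol, and each symbol matched 1 protein-coding row among the 60675 genes of the count table. RNA was sequenced from HT1080 cells, a human fibrosarcoma line, in 22 libraries of 6 groups. Wild-type cells (WT) and the mutant lines KDAC6H216A, KDAC6H611A and KDAC8H143A gave 4 libraries per group, and WT cells given Tubastatin A or PCI-34051 gave 3 per group. The 3 mutant lines carry a histidine-to-alanine change made with CRISPR/Cas9 in the cells' own gene. It lies in the first catalytic domain of KDAC6 (KDAC6H216A), in the second (KDAC6H611A), or in KDAC8 (KDAC8H143A), together with silent changes used for screening. The KDAC8H143A cells also carry an unintended single-base insertion in an intron of KDAC8. All lines were raised from single colonies, and for KDAC6H216A 3 independent lines were combined. Tubastatin A, an inhibitor directed at KDAC6, was given at 1 µM and PCI-34051, an inhibitor directed at KDAC8, at 5 µM, each for 2 days to otherwise unmodified cells, and both groups were set against untreated WT cells. Whether the inhibitor cultures or the WT cells received a vehicle is not given in the sources used here, so an effect of the solvent cannot be told apart from that of the drug. No group but WT serves as a control, so the 5 comparisons with WT share the same 4 libraries.

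Corepressor complexes do not bind specific DNA sequences well by themselves. Transcription factors recruit them, and their deacetylases HDAC1, HDAC2 or HDAC3 then remove acetyl groups from histone tails, which lowers transcription nearby. In NuRD, the ATPase CHD4 moves nucleosomes, an MTA protein scaffolds the deacetylase, and MBD3 or its methyl-DNA binding paralogue MBD2 joins the deacetylase and remodelling parts of the complex. In CoREST, RCOR1 bridges HDAC1 or HDAC2 to the histone demethylase KDM1A. SIN3A and NCOR1 are large scaffolds for their own deacetylase complexes, the latter with HDAC3. KDAC6 acts largely on cytoplasmic proteins such as tubulin, and KDAC8 on the cohesin subunit SMC3. Neither is known as a core subunit of these complexes.

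Library totals lay between 5249001 and 29862708 counts, with group medians of 8284055 in WT and 28547044 with Tubastatin A as the extremes among WT and the treated cells. Levels are given as counts per 1000000 counts of the library (CPM) after scaling by the trimmed mean of M values (TMM) over the 22 libraries. Fold changes come from a fit of the 2 groups compared, scaled within those groups, with a standard error (SE) and a p adjusted by the Benjamini-Hochberg (BH) method over all genes tested. Relative to that scale, the scale over all libraries set the treated groups 0.11 (Tubastatin A) and 0.10 (PCI-34051) higher against WT on the log2 scale. It set KDAC6H216A 0.09 higher, KDAC6H611A 0.02 lower and KDAC8H143A 0.05 lower. Groups are called not overlapping below only where this held on both scales. The mesenchymal markers VIM, FN1, CDH2, MMP14, PLAU, CAV1 and TIMP1 had counts in all 22 libraries, and the 8 markers of other cell types summed to 0.223 to 1.99 CPM, with ALB at 0 throughout. The mitochondrial rRNA share of counts differed by group: 20.8% to 23.9% in WT and 0.0259% or less in KDAC8H143A and both treated groups. Replicate 1 of KDAC6H216A (0.195%) and replicate 4 of KDAC6H611A (0.173%) stood apart from the other libraries of their lines. Of the targeted genes, HDAC6, which encodes KDAC6, had 5.86 to 7.46 CPM in KDAC6H216A against 9.72 to 17.0 in WT (log2 fold change -1.25, adjusted p = 5.40e-03 by edgeR). This call was kept in 2 of 8 fits without 1 library and was lost with the replicate numbers as a block (adjusted p = 0.0193). It was also made by DESeq2 (adjusted p = 1.85e-06) and by edgeR with a correction for GC content and transcript length (-1.19, adjusted p = 6.15e-03). The authors report no significant change of KDAC6 by RNA-seq in any line, and a slightly lower level in KDAC6H216A by qPCR. A point mutation leaves no mark of its own on a gene's count. In bulk RNA, a smaller number of cells of one type and less RNA per cell cannot be told apart.

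The 4 members that passed the test in KDAC8H143A are shown here by the 250 bases before their transcription start, since MTA1 and MBD3 rose there while KDM1A and RCOR1 fell. The sequences are from RefSeq (GRCh38.p14), in which all 9 members were matched, and are written 5′ to 3′ on the strand of the gene. Capitals mark GGGCGG, the core of a GC box, CCAAT and TATAAA, each searched on both strands. No stretch of capitals in these 4 windows holds more than 1 motif.
MTA1 (chr14:105419577-105419826, plus strand): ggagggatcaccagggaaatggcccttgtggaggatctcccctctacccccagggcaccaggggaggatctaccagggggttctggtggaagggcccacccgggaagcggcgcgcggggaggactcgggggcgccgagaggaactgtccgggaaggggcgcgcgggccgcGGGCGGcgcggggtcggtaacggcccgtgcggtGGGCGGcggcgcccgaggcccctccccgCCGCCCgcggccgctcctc
MBD3 (chr19:1592866-1593115, minus strand): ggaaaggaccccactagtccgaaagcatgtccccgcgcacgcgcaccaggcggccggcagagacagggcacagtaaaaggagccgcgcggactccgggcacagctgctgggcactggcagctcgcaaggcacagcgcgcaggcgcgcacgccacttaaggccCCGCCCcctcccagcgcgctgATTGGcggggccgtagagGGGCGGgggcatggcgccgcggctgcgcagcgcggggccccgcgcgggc
KDM1A (chr1:23019218-23019467, plus strand): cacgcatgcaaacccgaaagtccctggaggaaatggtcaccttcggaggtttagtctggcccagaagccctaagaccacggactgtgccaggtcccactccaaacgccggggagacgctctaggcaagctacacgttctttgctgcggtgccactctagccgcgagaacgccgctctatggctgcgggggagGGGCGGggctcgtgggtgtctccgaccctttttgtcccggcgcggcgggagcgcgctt
RCOR1 (chr14:102592399-102592648, plus strand): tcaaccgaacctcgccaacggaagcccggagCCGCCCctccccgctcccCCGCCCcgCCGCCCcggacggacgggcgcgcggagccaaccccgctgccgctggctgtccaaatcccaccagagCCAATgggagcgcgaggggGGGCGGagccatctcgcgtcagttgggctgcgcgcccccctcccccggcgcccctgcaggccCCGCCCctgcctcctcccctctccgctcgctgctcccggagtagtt
GGGCGG occurred 3 times before MTA1, 2 times before MBD3, once before KDM1A and 5 times before RCOR1. Among 27305 windows of this length before human genes, 42.3% held GGGCGG, 33% CCAAT and 11.1% TATAAA. Before MBD3 and RCOR1 the search found CCAAT, and TATAAA lay before none of these 4. The windows before MTA1, MBD3 and RCOR1 were 74.8% to 76.8% G and C and the one before KDM1A 64%, against a median of 58% over all windows. The pair that rose and the pair that fell were not separated by these letters. With only 4 genes, chosen by their fold changes, this cannot decide whether the windows have a part in the changes, which was not tested. The calls for MBD3 and RCOR1 were lost with the correction for GC content and transcript length given below.

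The members ranged widely in abundance. In WT cells, per kilobase of transcript, CHD4 led with 63.3 ± 4.19 CPM per kb (SD, n = 4), followed by MTA2 (37.6 ± 3.31), KDM1A (33.9 ± 2.68), MTA1 (27.1 ± 2.26), MBD3 (16.4 ± 2.01), NCOR1 (14.3 ± 0.504), SIN3A (11.5 ± 0.709), RCOR1 (6.98 ± 0.773) and MTA3 (3.68 ± 0.281). MTA2 and KDM1A lay within their combined spread, as did MBD3 and NCOR1, while CHD4 and MTA3 stood clear at the ends. The order was the same in both KDAC6 lines. In KDAC8H143A, MTA1 reached 74.6 ± 16.6 CPM per kb and passed CHD4 (60.3 ± 6.11), although the spreads of these values overlap. MBD3 came next after MTA2 at 32.2 ± 9.07 and KDM1A stood below it at 19.8 ± 1.60. With either inhibitor MTA1 came next after CHD4, at 37.5 ± 1.41 CPM per kb with Tubastatin A and 40.6 ± 1.39 with PCI-34051 (SD, n = 3 each), above MTA2 at 30.4 ± 0.195 and 29.8 ± 0.773. With Tubastatin A, KDM1A at 36.1 ± 0.353 lay within the combined spread of MTA1.

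**Figure D1:**
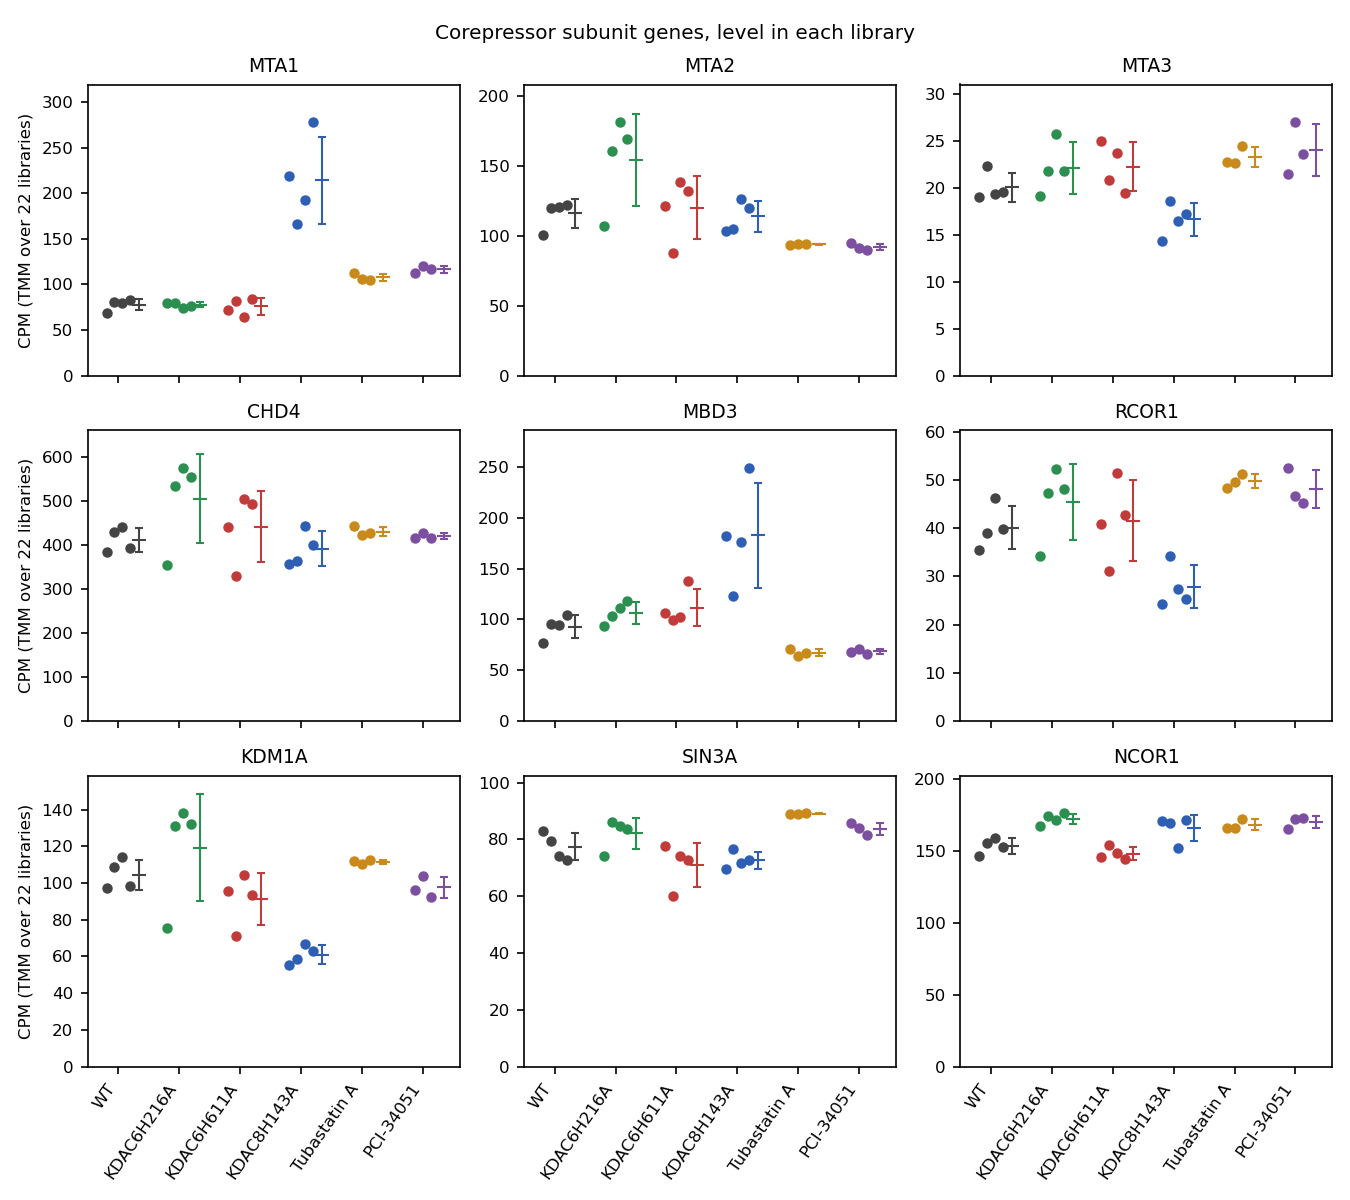
Level of each of the 9 genes (CPM, TMM over 22 libraries, linear axis from 0) in every library, one panel per gene and one colour per group, with the group mean and SD as a bar beside the points. The KDAC8H143A libraries lie highest for MTA1 (167 to 278 CPM) and lowest for KDM1A (55.5 to 66.8 CPM), and replicate 1 of KDAC6H216A lies below its group for CHD4, MTA2 and KDM1A.

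The comparisons with WT asked how these genes differed in each mutant line, or with a drug directed at KDAC6 or KDAC8. Independent lines are described only for KDAC6H216A, so in KDAC6H611A and KDAC8H143A differences between clones cannot be told apart from the mutation. In KDAC8H143A 4 of the 9 members passed an adjusted p of 0.01 by edgeR, MTA1 and MBD3 higher and RCOR1 and KDM1A lower. Among all genes tested in that comparison 58.5% passed, 31.6% higher and 26.9% lower, so 4 of 9 was no larger a share than the background. With Tubastatin A 3 members passed, MTA1 higher and MTA2 and MBD3 lower, against 57.9% of all genes (29.3% higher, 28.6% lower). With PCI-34051 4 passed, MTA1 higher and MTA2, MBD3 and KDM1A lower, against 51.1% of all genes (25.5% higher, 25.6% lower). No member passed in KDAC6H216A, where 0.834% of all genes did (0.214% higher, 0.621% lower), or in KDAC6H611A, where 12.3% did (6.08% higher, 6.24% lower). DESeq2 also called 0 in each of these lines, and at an unadjusted p under 0.05 edgeR gave 1 member in each, MTA2 in KDAC6H216A and MBD3 in KDAC6H611A. The median log2 fold change of the members was -0.02 in KDAC8H143A, 0.02 with each inhibitor, 0.08 in KDAC6H216A and 0.07 in KDAC6H611A, against medians of all genes tested from -0.01 to 0.08. The directions depended on scaling in part. In KDAC8H143A 2 members were called higher and 2 lower, but 1 higher (MTA1) and 4 lower (KDM1A, MTA2, MTA3 and CHD4) with a correction for GC content and transcript length, and 3 higher and 1 lower with total counts alone. Total counts alone also gave 7 higher and 1 lower with Tubastatin A and 6 higher and 0 lower with PCI-34051, where that scaling moved the median of all genes by 0.35 and 0.39.

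**Figure D2:**
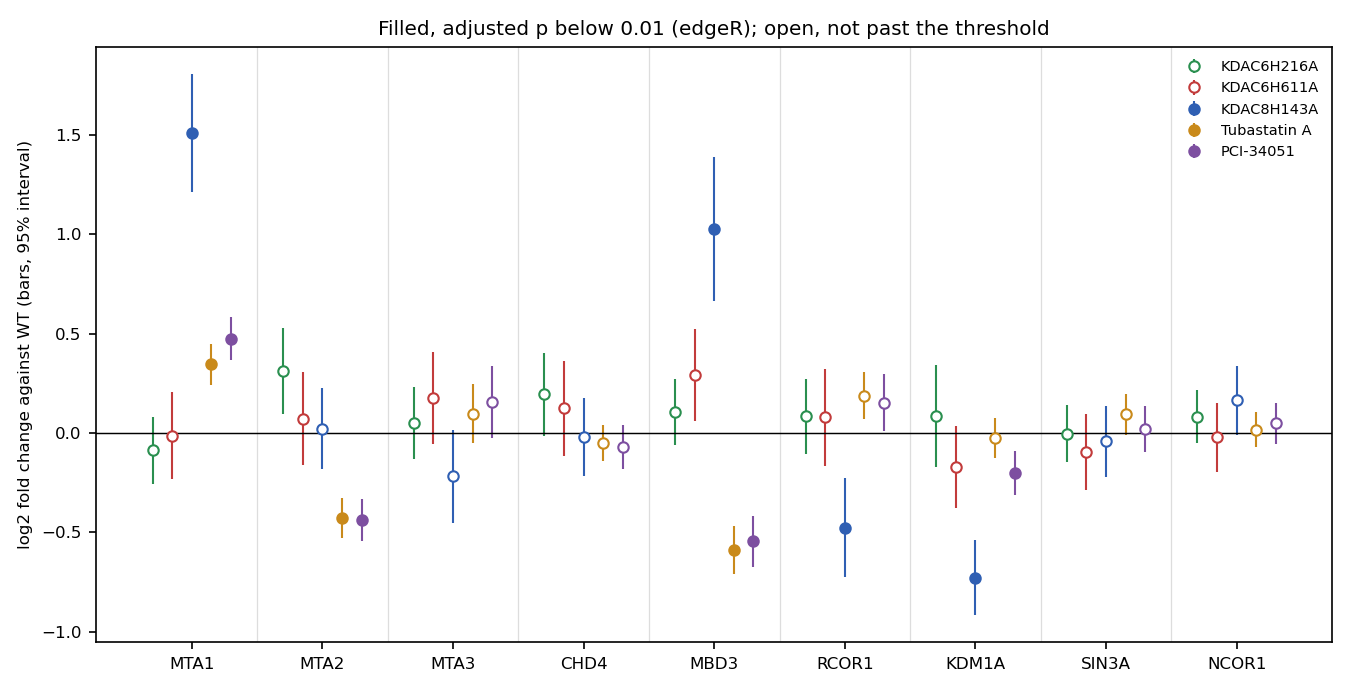
Log2 fold change against WT of the 9 genes in the 5 other groups (points) with 95% intervals (bars, 1.96 standard errors), filled where the adjusted p by edgeR was below 0.01 and open where it was not. MTA1 reads 1.51 in KDAC8H143A and 0.34 and 0.47 with the inhibitors, and MBD3 lies at 1.03 in KDAC8H143A and at -0.59 and -0.55 with Tubastatin A and PCI-34051.

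MTA1 (ENSG00000182979, chromosome 14, 105419820 to 105470729, plus strand), a scaffold of NuRD first known from metastatic tumour cells, was higher in all 3 of KDAC8H143A, Tubastatin A and PCI-34051. It had 68.5, 81.1, 79.2 and 83.0 CPM in the WT libraries and 219, 167, 193 and 278 CPM in KDAC8H143A. With Tubastatin A it had 112, 106 and 104 CPM, and with PCI-34051 112, 120 and 117 CPM. Every library of these 3 groups lay above every WT library, whereas both KDAC6 lines (64.3 to 84.3 CPM) overlapped WT. The log2 fold change was 1.51 in KDAC8H143A (SE 0.15, BH-adjusted p = 7.03e-06 by edgeR), that is 2.85-fold. It was 0.34 with Tubastatin A (SE 0.05, BH-adjusted p = 1.17e-05) and 0.47 with PCI-34051 (SE 0.05, BH-adjusted p = 8.11e-07). The 2 drug values are not compared, since the doses differ. Each of these calls held without any 1 library. MTA1 overlaps exons of TEX22 on its own strand and of a long non-coding RNA on the other, and 59.1% of libraries had a fractional count for it, so some of its reads were divided between genes.

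The rise of MTA1 in KDAC8H143A went together with a trend over all genes by base composition. In that comparison, the median log2 fold change was -0.60 among the 5874 genes whose transcripts were under 45% G and C, and it rose from bin to bin to 1.12 among the 2362 genes at 60% and over. MTA1 (61.6%) and MBD3 (62.8%) are the members in the top bin. With a smooth correction for GC content and transcript length, the log2 fold change of MTA1 in KDAC8H143A became 0.62 (adjusted p = 4.24e-05 by edgeR), smaller but past the threshold. The values with Tubastatin A and PCI-34051 became 0.40 and 0.47. With these inhibitors no bin's median left -0.15 to 0.12. What sets the trend in KDAC8H143A was not tested.

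**Figure D3:**
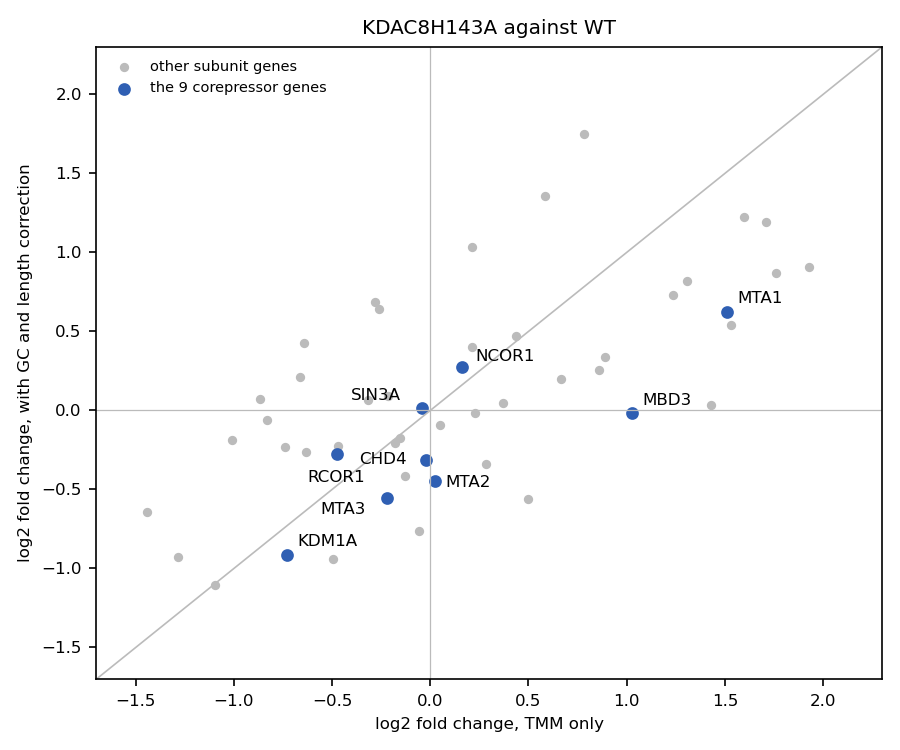
Log2 fold change in KDAC8H143A against WT with TMM alone (x axis) and with the correction for GC content and length added (y axis), for the 9 genes (blue, named) and the other subunit genes tested (grey), with the line of equal values. MTA1 stays above 0 on both axes (1.51 and 0.62), MBD3 moves from 1.03 to -0.02, and KDM1A is below 0 on both (-0.73 and -0.91).

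MTA2 (ENSG00000149480, chromosome 11, 62593214 to 62601865, minus strand), the most abundant MTA gene in WT cells, fell with both inhibitors. Its WT libraries had 101, 120, 121 and 122 CPM. Those with Tubastatin A had 93.2, 93.8 and 94.4 CPM and those with PCI-34051 94.6, 91.3 and 89.9 CPM, all below the lowest WT library. The log2 fold change was -0.43 with Tubastatin A (SE 0.05, BH-adjusted p = 6.05e-07 by edgeR) and -0.44 with PCI-34051 (SE 0.05, BH-adjusted p = 1.78e-06). Both calls held without any 1 library and with the GC and length correction (-0.33 and -0.38). They were lost with scaling to total counts alone, the scaling that raised the median of all genes. They were also lost with all 6 groups in 1 fit, at -0.31 and -0.34 (adjusted p = 0.117 and 0.0915), where both the scaling and the estimate of the spread differ. In KDAC8H143A, MTA2 stood at 104, 105, 127 and 120 CPM, overlapping WT, with a log2 fold change of 0.02 (95% interval -0.18 to 0.23, adjusted p = 0.859), and the correction gave -0.45 (adjusted p = 7.95e-04). MTA3 (ENSG00000057935, chromosome 2, 42494569 to 42756947, plus strand), the least abundant of the 3, did not pass in any comparison with WT. It had 14.4 to 18.6 CPM in KDAC8H143A and 19.0 to 22.3 CPM in WT, without overlap, and a log2 fold change of -0.22 (SE 0.12, BH-adjusted p = 0.121), which with the correction was -0.55 (adjusted p = 1.44e-03).

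The balance among the 3 MTA genes differed between groups, as a description chosen after their values were seen. Per kilobase, MTA1 made up 39.2% to 40.1% of their summed level in WT, with MTA2 at 54.4% to 55.7%. MTA1 had the larger share in every library of KDAC8H143A (60.4% to 69.7%), of Tubastatin A (50.9% to 53.2%) and of PCI-34051 (53.0% to 54.9%). In KDAC6H216A its share was 42.2% in 1 library and 29.0% to 33.2% in the other 3, and KDAC6H611A ranged from 31.3% to 47.0%, on both sides of WT. The same library of KDAC6H216A, replicate 1, also had little mitochondrial rRNA (0.195% of counts), and the part of this in its share was not tested.

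**Figure D4:**
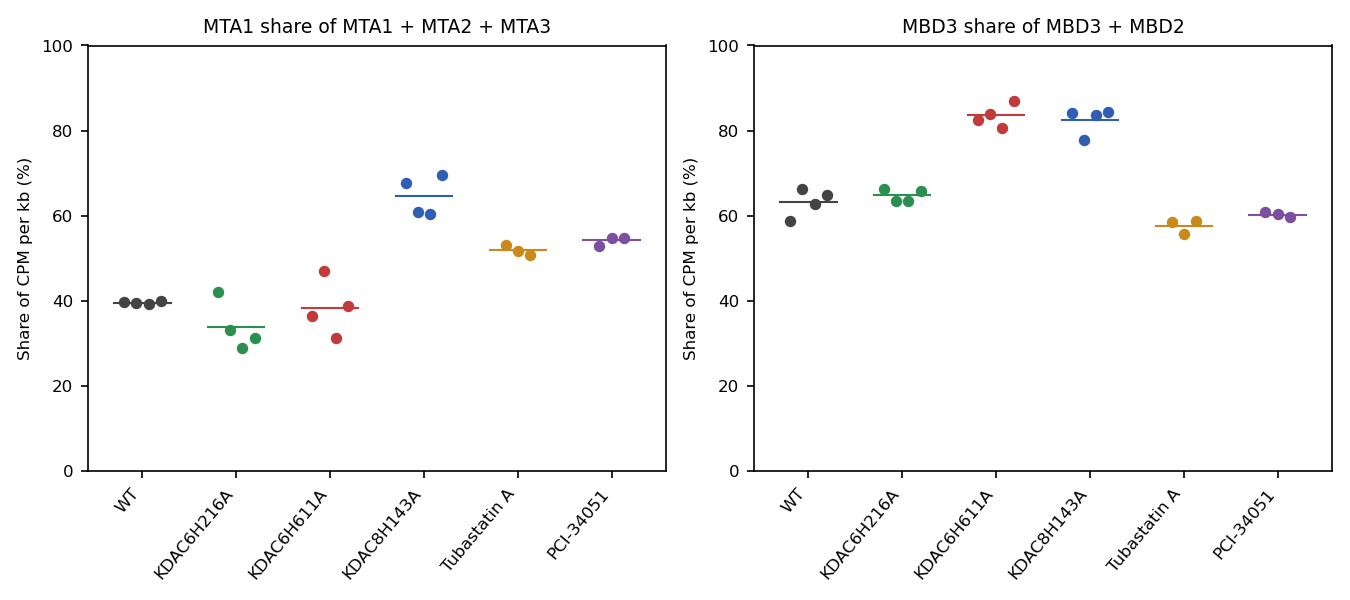
Share of MTA1 in the summed CPM per kb of MTA1, MTA2 and MTA3 (left) and of MBD3 in that of MBD3 and MBD2 (right), in percent on an axis from 0 to 100, with a point per library and a line at each group's mean. MTA1 passes 50% in the KDAC8H143A libraries and in those treated with either inhibitor, and MBD3 lies at 77.7% to 87.0% in KDAC6H611A and KDAC8H143A and at 55.7% to 66.4% in the other 4 groups. The shares are without the correction for GC content and length.

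MBD3 (ENSG00000071655, chromosome 19, 1573596 to 1592865, minus strand) moved in opposite directions in KDAC8H143A and with the inhibitors. It had 76.9, 95.4, 95.0 and 104 CPM in WT and 182, 124, 176 and 249 CPM in KDAC8H143A. With Tubastatin A it had 71.2, 63.9 and 66.7 CPM and with PCI-34051 68.4, 70.7 and 66.3 CPM. None of these 3 groups overlapped WT. The log2 fold change was 1.03 in KDAC8H143A (SE 0.18, BH-adjusted p = 3.85e-04 by edgeR), -0.59 with Tubastatin A (SE 0.06, BH-adjusted p = 1.08e-07) and -0.55 with PCI-34051 (SE 0.07, BH-adjusted p = 1.42e-06). All 3 calls held without any 1 library. With the GC and length correction the rise in KDAC8H143A was gone (-0.02, adjusted p = 0.891), while the falls with the inhibitors stayed (-0.62 and -0.62). With all 6 groups in 1 fit, which changes both the scaling and the estimate of the spread, the falls were -0.47 and -0.44 and missed the threshold (adjusted p = 0.0297 and 0.0419), and with total counts alone the fall with PCI-34051 did (-0.16). In KDAC6H611A the libraries had 106, 99.8, 102 and 138 CPM, the highest being replicate 4, whose mitochondrial rRNA share is low. The log2 fold change there was 0.29 (SE 0.12, BH-adjusted p = 0.100), and 0.18 without that library.

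MBD2, which takes the place of MBD3 in another form of NuRD, fell in KDAC6H611A to 17.0 to 21.8 CPM from 43.0 to 50.2 CPM in WT (log2 fold change -1.28, SE 0.10, BH-adjusted p = 4.25e-06 by edgeR). Whether a difference between clones has a part in this fall was not tested. MBD3 then made up 80.7% to 87.0% of the pair per kilobase in KDAC6H611A, and 77.7% to 84.3% in KDAC8H143A, against 58.8% to 66.4% in WT. These shares are without the GC and length correction. Under it the fall of MBD2 in KDAC6H611A stayed (-1.22, adjusted p = 7.27e-06 by edgeR), while the rise of MBD3 in KDAC8H143A was gone (-0.02). In KDAC8H143A MBD2 was lower as well (log2 fold change -0.47, SE 0.12, BH-adjusted p = 5.08e-03), a call kept in 3 of 8 fits without 1 library and lost with the correction (-0.22, adjusted p = 0.136). MBD3 shares exonic sequence with a same-strand gene model, and 77.3% of libraries had a fractional count for it.

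CHD4 (ENSG00000111642, chromosome 12, 6570082 to 6614524, minus strand), the ATPase of NuRD and the most abundant member, did not pass in any comparison with WT. Its log2 fold changes lay between -0.07 (PCI-34051, 95% interval -0.18 to 0.04) and 0.20 (KDAC6H216A, -0.01 to 0.40). The WT libraries had 384 to 440 CPM and the KDAC8H143A libraries 357 to 443 CPM. In KDAC6H216A, replicate 1 had 355 CPM and the other 3 libraries 533, 574 and 555 CPM, above all WT libraries on the scale over 22 libraries. With the correction CHD4 fell by 0.31 on the log2 scale in KDAC8H143A (adjusted p = 9.70e-03 by edgeR). A non-coding RNA overlaps its exons on the opposite strand, and its count was fractional in 100% of libraries.

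Both CoREST members were lower in KDAC8H143A. KDM1A (ENSG00000004487, chromosome 1, 23019443 to 23083689, plus strand), the demethylase that removes methyl groups from lysine 4 of histone H3, had 97.2, 109, 114 and 98.2 CPM in WT and 55.5, 58.8, 66.8 and 63.0 CPM in KDAC8H143A. No KDAC8H143A library reached the lowest of any other group, 71.2 CPM. The log2 fold change was -0.73 (SE 0.10, BH-adjusted p = 4.60e-05 by edgeR), a level 0.604 times that of WT. It was called without any 1 library and with the GC and length correction (-0.91, adjusted p = 2.48e-06). Of the 4 members called in KDAC8H143A, KDM1A and MTA1 kept both call and direction under the correction. With PCI-34051 KDM1A had 96.2, 104 and 92.6 CPM and a log2 fold change of -0.20 (SE 0.06, BH-adjusted p = 4.54e-03), a call that was kept in 3 of 7 fits without 1 library and was not made by DESeq2 (adjusted p = 0.0389). Total counts alone turned it to 0.19. With Tubastatin A the value was -0.03 (95% interval -0.13 to 0.07).

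RCOR1 (ENSG00000089902, chromosome 14, 102592649 to 102730561, plus strand), the scaffold that activates KDM1A on nucleosomes, had 35.6, 38.9, 46.2 and 39.8 CPM in WT. In KDAC8H143A it had 24.4, 34.3, 27.3 and 25.4 CPM, each below the lowest WT library. The log2 fold change was -0.48 (SE 0.13, BH-adjusted p = 5.21e-03 by edgeR). It was called in 4 of 8 fits without 1 library, and the correction gave -0.28 (adjusted p = 0.0364). With Tubastatin A RCOR1 had 48.5, 49.7 and 51.3 CPM and a log2 fold change of 0.19 that just missed the threshold (SE 0.06, BH-adjusted p = 0.0104), while DESeq2 gave 9.66e-03. With PCI-34051 it was 0.15 (SE 0.07, BH-adjusted p = 0.0770). RCOR1 and MTA1 both lie on chromosome 14 and had opposite signs in KDAC8H143A.

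SIN3A and NCOR1 had the narrowest range of fold changes among the members. SIN3A (ENSG00000169375, chromosome 15, 75369379 to 75455842, minus strand) had 72.8 to 83.1 CPM in WT, 69.6 to 76.5 CPM in KDAC8H143A, 88.9 to 89.2 CPM with Tubastatin A and 81.6 to 85.8 CPM with PCI-34051. Its log2 fold changes ran from -0.09 (KDAC6H611A, 95% interval -0.29 to 0.10) to 0.09 (Tubastatin A, -0.01 to 0.20), and none passed. NCOR1 (ENSG00000141027, chromosome 17, 16029065 to 16218185, minus strand) had 146 to 159 CPM in WT and 144 to 176 CPM over the other groups. Its largest log2 fold change was 0.16 in KDAC8H143A (SE 0.09, BH-adjusted p = 0.116 by edgeR), with 170, 169, 152 and 171 CPM. On the TMM scale the 95% intervals of both genes allow changes of at most 0.34 on the log2 scale in either direction in any comparison with WT. With the correction NCOR1 in KDAC8H143A was at 0.27 (adjusted p = 0.0112). With total counts alone NCOR1 was called higher in KDAC8H143A (0.45), and both genes were called higher with Tubastatin A (SIN3A 0.45, NCOR1 0.37) and PCI-34051 (SIN3A 0.41, NCOR1 0.44). Genes on the opposite strand overlap the exons of both, and NCOR1 has 3 annotated pseudogene copies, so a small part of their counts may belong elsewhere.

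In the KDAC6H216A line the members hinged on replicate 1. MTA2 had 107 CPM there and 160, 181 and 169 CPM in the other 3 libraries, and KDM1A had 75.6 CPM there and 131, 138 and 132 CPM in the others. Without that library MTA2 (log2 fold change 0.41, SE 0.06, BH-adjusted p = 2.49e-05 by edgeR), CHD4 (0.29, SE 0.05, BH-adjusted p = 1.95e-04) and KDM1A (0.21, SE 0.06, BH-adjusted p = 5.37e-03) passed the test, all higher than in WT. The share of all genes called rose with it from 0.834% to 26.1%, 12.2% higher and 13.9% lower, so 3 of 9 is close to the background. The library's low mitochondrial rRNA was not tested as a cause. In KDAC6H611A no member passed with or without replicate 4. The log2 fold changes there lay between -0.17 (KDM1A, SE 0.11, BH-adjusted p = 0.285) and 0.29 (MBD3).

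Direct comparisons between groups gave the differences themselves. No member differed between the KDAC6 lines, where 9.93% of all genes did (4.61% higher and 5.31% lower in KDAC6H611A). The widest were KDM1A (-0.29, SE 0.16, BH-adjusted p = 0.223 by edgeR) and MTA2 (-0.27, SE 0.15, BH-adjusted p = 0.235). DESeq2 called 0 members too, and 0 had an unadjusted p under 0.05. Without the libraries of low mitochondrial rRNA in each line the values grew to -0.42 and -0.41 and still missed the threshold (adjusted p = 0.0284 and 0.0477). KDAC8H143A against KDAC6H611A gave 3 members, MTA1 higher by 1.53 on the log2 scale (SE 0.18, BH-adjusted p = 3.07e-05), MBD3 higher by 0.75 (SE 0.20, BH-adjusted p = 6.84e-03) and KDM1A at -0.55 (SE 0.14, BH-adjusted p = 4.70e-03). Among all genes 45.2% passed, 24.4% higher and 20.9% lower. MTA1 held without any 1 library, KDM1A in 3 of 8 such fits and MBD3 in 2 of 8. With the correction MTA1 was at 0.81 and MBD3 at -0.16.

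KDAC8H143A against PCI-34051 set the mutation of KDAC8 beside the inhibitor directed at it, and 5 members differed. MBD3 was higher in the mutant line by 1.38 on the log2 scale (SE 0.20, BH-adjusted p = 1.47e-04 by edgeR) and MTA1 by 0.84 (SE 0.16, BH-adjusted p = 1.01e-03). RCOR1 was at -0.82 (SE 0.14, BH-adjusted p = 4.42e-04), KDM1A at -0.72 (SE 0.11, BH-adjusted p = 1.87e-04) and MTA3 at -0.56 (SE 0.14, BH-adjusted p = 3.89e-03). The libraries of these groups did not overlap for any of the 5, nor for MTA2 and SIN3A, which did not pass. How many of all genes did not overlap was not counted. Among all genes 58.2% passed, 27.9% higher and 30.3% lower, again a share like that of the members. With the correction MBD3 stayed higher (0.42, adjusted p = 2.59e-03), RCOR1, KDM1A and MTA3 stayed lower (-0.58, -0.93 and -0.88), and the difference in MTA1 was gone (-0.04, adjusted p = 0.756). The call for MTA3 was kept in 3 of 7 fits without 1 library. Mitochondrial rRNA was low in both groups, while total counts were 11010771 to 17170522 in KDAC8H143A and 24315817 to 28676563 with PCI-34051.

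The other subunits of these complexes were read from a list of 42 genes, of which 40 or 41 were tested in each comparison. In KDAC6H216A 0 passed by edgeR and 0 by DESeq2, and 3 had an unadjusted p under 0.05 by edgeR, and in KDAC6H611A 1 was higher and 4 lower. In KDAC8H143A 14 were higher and 12 lower, with Tubastatin A 16 and 9, and with PCI-34051 13 and 8. Among all genes tested, 31.6%, 29.3% and 25.5% were higher in these 3 groups and 26.9%, 28.6% and 25.6% lower. The shares in the KDAC6 lines are given above. By complex, the NuRD partners gave 1 higher and 4 lower in KDAC8H143A, 1 and 3 with Tubastatin A and 1 and 2 with PCI-34051. Those of SIN3 gave 4 and 5, 4 and 4, and 3 and 5 in the same order. Those of NCoR gave 3 and 1, 1 and 0, and 1 and 0. HDAC1 and HDAC2, which CoREST also carries, were listed apart as shared subunits and are in none of these counts by complex. In KDAC8H143A HDAC2 fell (-1.44) and HDAC1 did not pass, while both rose with each inhibitor. The other CoREST partners, picked out from these counts without a test, leaned one way. Of 8 tested in KDAC8H143A 5 were higher and 0 lower, of 7 with Tubastatin A 6 were higher and 1 lower, and of 7 with PCI-34051 6 were higher and 0 lower, with median log2 fold changes of 1.38, 0.36 and 0.46. The medians of all genes tested were 0.08, -0.003 and -0.01. In KDAC8H143A this ran against the fall of RCOR1 and KDM1A themselves. With the GC and length correction the calls for PHF21A, GSE1 (1.19), ZMYM3 (0.73) and HMG20B (0.54) held and that for RCOR2 was lost. The zinc-finger protein ZMYM2, which turned from -0.26 to 0.64, and the RCOR1 paralogue RCOR3, which moved from 0.21 to 1.04, were called higher under it (adjusted p = 1.93e-05 and 3.43e-06). With Tubastatin A the correction brought RCOR3 to 0.12 and ZMYM2 to 0.11, under the threshold (adjusted p = 0.146 and 0.0271 by edgeR). The call for RCOR3 there was also lost with the replicate block (adjusted p = 0.026). The other rises with Tubastatin A and those with PCI-34051 held under the correction.

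The CoREST partner PHF21A, which reads histone H3 unmethylated at lysine 4, rose in 3 groups. It had 12.6 to 18.8 CPM in WT, 39.9 to 49.9 CPM in KDAC8H143A, 32.8 to 36.0 CPM with Tubastatin A and 33.1 to 38.0 CPM with PCI-34051. Its log2 fold changes were 1.60 (SE 0.14, BH-adjusted p = 2.45e-06 by edgeR), 1.06 (SE 0.09, BH-adjusted p = 5.24e-09) and 1.14 (SE 0.10, BH-adjusted p = 2.81e-08), and with the correction they were 1.23, 1.05 and 1.10. HMG20B, a high-mobility group subunit of CoREST, rose by 0.78 on the log2 scale with Tubastatin A and 0.76 with PCI-34051. In KDAC8H143A the largest rises on the list were those of RCOR2, a paralogue of RCOR1 (1.93, with 0.207 to 0.869 CPM in WT and 1.25 to 2.20 CPM in KDAC8H143A, and an adjusted p of 0.0716 with the correction), and SIN3B, a paralogue of SIN3A (1.76, SE 0.18, BH-adjusted p = 8.43e-06, corrected 0.87). RCOR2 was too low to be tested in the other comparisons with WT. The largest falls were those of the deacetylase HDAC2 and of SAP18, a small SIN3-associated protein (-1.28, SE 0.16, BH-adjusted p = 2.68e-05).

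**Figure D5:**
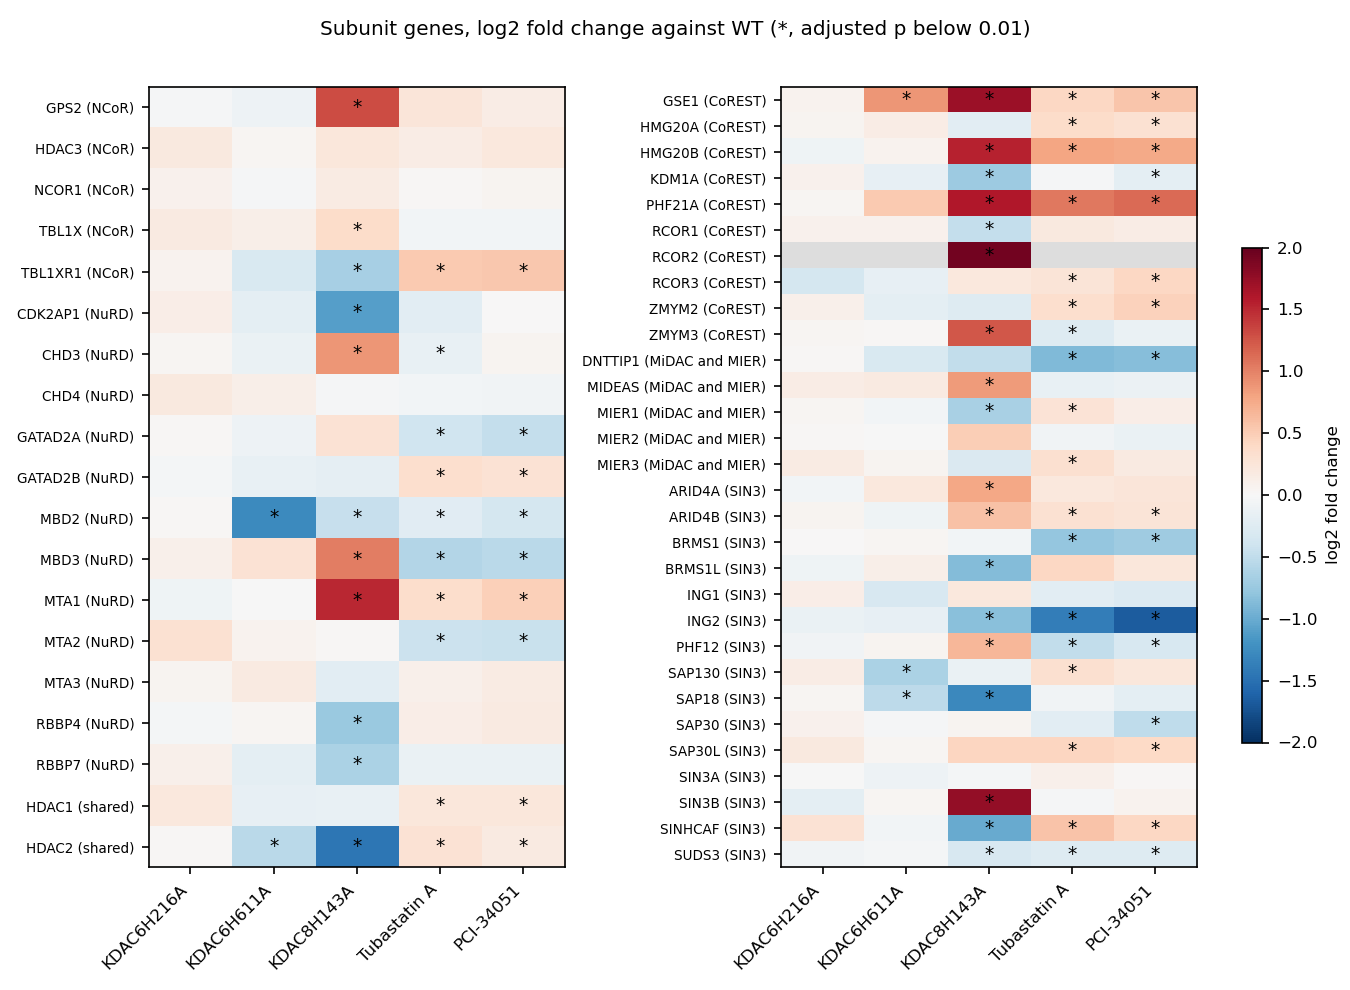
Log2 fold change against WT (colour, red higher and blue lower, from -2 to 2) of the 9 genes and other subunit genes of their complexes in the 5 groups (columns), grouped by complex, with a star where the adjusted p by edgeR was below 0.01 and grey where a gene was not tested. PHF21A and HMG20B are red with a star in KDAC8H143A, Tubastatin A and PCI-34051, MBD2 is darkest blue in KDAC6H611A (-1.28), and ING2 is blue with a star with both inhibitors (-1.38 and -1.66).

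The deacetylases these scaffolds carry differed in direction among groups. HDAC2 was at 92.9 to 106 CPM in WT, 31.5 to 38.7 CPM in KDAC8H143A, 51.1 to 74.8 CPM in KDAC6H611A, 133 CPM in all Tubastatin A libraries to the nearest whole number and 118 to 125 CPM with PCI-34051. It fell by 1.44 on the log2 scale in KDAC8H143A (SE 0.10, BH-adjusted p = 5.85e-07 by edgeR, corrected -0.64) and by 0.54 in KDAC6H611A (SE 0.11, BH-adjusted p = 3.40e-03, corrected -0.38 with adjusted p = 0.0539). It rose by 0.29 with Tubastatin A and 0.17 with PCI-34051, rises that the correction brought to 0.09 and 0.03, under the threshold. Whether differences between clones have a part in the falls of HDAC2 was not tested. HDAC1 rose with both inhibitors (0.23 in each, adjusted p = 2.48e-04 and 5.37e-03, the latter call kept in 4 of 7 fits without 1 library) and did not pass in the 3 mutant lines. HDAC3, the deacetylase of the NCOR1 complex, passed in none of the comparisons with WT (adjusted p from 0.0205 to 0.892). With the correction it passed with Tubastatin A (0.14 became 0.27, adjusted p = 1.24e-03) and with PCI-34051 (0.20 became 0.30, adjusted p = 1.07e-03). In KDAC6H611A the list's other changes were GSE1 of CoREST (0.89, SE 0.11, BH-adjusted p = 9.31e-05), SAP130 (-0.63) and SAP18 (-0.52). The call for SAP130 was kept in 4 of 8 fits without 1 library and lost with the replicate block (adjusted p = 0.0109). That for SAP18 was kept in 2 of 8 and lost with the block and with the correction (adjusted p = 0.0122 and 0.0231). With both inhibitors the largest falls were those of ING2, a SIN3 subunit that reads methylated histone H3, and DNTTIP1, a scaffold of the related MiDAC complex (-0.89 with Tubastatin A and -0.85 with PCI-34051).

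The genes whose 5 fold changes against WT came closest to those of each member were sought among 9292 protein-coding genes, by the root mean square difference of log2 fold changes over the 5 comparisons. GRAMD1A was nearest to MTA1 (0.0824), FOXK2 to MTA2 (0.0750), BTRC to MTA3 (0.0293), BAG6 to CHD4 (0.0388) and SRRT to MBD3 (0.0498). PPARA was nearest to RCOR1 (0.0418), GAPDH to KDM1A (0.0365), COMMD7 to SIN3A (0.0350) and ALG12 to NCOR1 (0.0420). No member was the nearest gene of another. The closest members were SIN3A and NCOR1 (0.111), with 138 other genes nearer to SIN3A and 123 nearer to NCOR1. MTA1 and its nearest member differed by 0.652 and RCOR1 and KDM1A, partners in 1 complex, were nearest members for KDM1A at 0.244, behind 1259 other genes. These distances describe the 5 comparisons, which share the WT libraries, and carry no test.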

How the data were processed

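RNA of 22 HT1080 libraries had been depleted of rRNA and sequenced as paired ends. The authors trimmed reads with Trimmomatic 0.39, aligned them to GRCh38 with Bowtie2 2.4.5, and deposited expected counts per gene from RSEM 1.3.3, unscaled for depth or length. The annotation release and the use of strand are not given in the sources used here. Depth was 5249001 to 29862708 counts per library, and 0 columns of values were left unused. Expected counts were rounded to whole numbers. In edgeR 4.0.16 (R 4.3.3) each pair of groups was fitted by itself (filterByExpr, TMM, glmQLFit and glmQLFTest), with Benjamini-Hochberg adjustment over all genes tested and a threshold of 0.01. The standard error is the log2 fold change over the square root of F, taken without its sign, and a 95% interval is 1.96 standard errors each way. Lengths, GC content and positions came from GENCODE release 44, from the canonical transcript of each gene. SINHCAF and MIDEAS were found under older symbols. Alternatives were DESeq2 1.42.0, other scalings, filters and thresholds, all 6 groups in 1 fit, the replicate block, a correction for GC content and length by smooth offsets (mgcv 1.9.3), thinning to 5249001 counts, and leaving out each library. Leaving out both libraries with little mitochondrial rRNA was chosen after the data were seen. On simulated data for KDAC8H143A against WT, edgeR recovered 93% of 100 genes changed by 1 on the log2 scale, among 16221 genes. With a GC trend added, edgeR recovered 67% of genes so changed without the correction and 95% with it. Of the calls then made, 98.45% were false without the correction and 0% with it. The added trend depended on GC content alone, the form that the correction removes. This outcome therefore does not test the correction on the trend in these data. The members and the subunit list were chosen with earlier results of these data known. A listed subunit and a listed marker are not reported here by name. Named genes were all members, the 2 largest called rises and falls of other subunits in each comparison with WT, HDAC1, HDAC2 and HDAC3, and the nearest gene to each member with a mean of at least 10 CPM. RNA came from biological replicates, per the authors. Summaries were made with python 3.11.15, pandas 2.3.3 and matplotlib 3.10.9.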

Additional observations from a re-analysis of the deposited data

Results flagged for a closer look

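The tests between groups other than WT gave differences past the threshold for 3 members between KDAC8H143A and KDAC6H611A, with log2 differences of 1.53 for MTA1, 0.75 for MBD3 and -0.55 for KDM1A by edgeR. Between KDAC8H143A and PCI-34051 they did so for 5 members, at 0.84 for MTA1, -0.56 for MTA3, 1.38 for MBD3, -0.82 for RCOR1 and -0.72 for KDM1A.

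A single library stood far from the rest of its group in 5 of the 36 sets of 4 libraries examined. Chance alone marks about 1 set in 20. Replicate 1 of WT was lowest for MTA2 (101 CPM) and replicate 2 of WT highest for MTA3 (22.3 CPM). Replicate 4 of KDAC6H611A was highest for MBD3 (138 CPM), replicate 1 of KDAC6H216A lowest for KDM1A (75.6 CPM) and replicate 3 of KDAC8H143A lowest for NCOR1 (152 CPM). The KDAC6H611A and KDAC6H216A libraries among these are the ones with 0.173% and 0.195% of counts in mitochondrial rRNA, and the part of this in their levels was not tested.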

How the results depend on the processing

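The number of members called moved by over 1.5 times in 4 of the 8 comparisons. KDAC6H216A gave 0 with all libraries and 0 to 3 when 1 library was left out, with 3 (MTA2, CHD4 and KDM1A) without its replicate 1. Tubastatin A gave 3, but 8 with total counts only, 5 with no filter and 1 with all 6 groups in 1 fit. PCI-34051 gave 4, but 1 with all 6 groups in 1 fit. KDAC8H143A against KDAC6H611A gave 3, but 5 at an adjusted p of 0.05, 5 with all 6 groups in 1 fit, and 1 to 4 with 1 library left out, with 1 without replicate 1 or 3 of either line. Leaving out 1 library gave 3 to 4 for KDAC8H143A, Tubastatin A and PCI-34051 against WT, 4 to 5 for KDAC8H143A against PCI-34051, and 0 for both comparisons of KDAC6H611A with WT and KDAC6H216A. A sign is counted as turned only where 1 of the values was past the threshold. With the GC content and length correction, MTA2 in KDAC8H143A turned to -0.45 (-0.45 with the replicate block), MBD3 in KDAC8H143A to -0.016 (-0.017 with the block), MBD3 in KDAC8H143A against KDAC6H611A to -0.16 (-0.16 with the block), and MTA1 in KDAC8H143A against PCI-34051 to -0.036 (-0.073 with the block). Total counts only turned CHD4 to 0.30 and KDM1A to 0.33 with Tubastatin A, and CHD4 to 0.32 and KDM1A to 0.19 with PCI-34051. The cause of these shifts was not tested. Of the other values outside the fits without 1 library, 739 kept direction and side, 30 passed the threshold where they had not, and 20 lost it. In the fits without 1 library 519 values were the same, 7 passed the threshold where they had not, and 23 lost it. Same-numbered libraries correlated at -0.351 to 0.552 in their deviations from group means. Libraries of different numbers were not compared in this way, so these values cannot decide whether the numbers pair the samples. The replicate block left the counts at 0, 0, 4, 3, 4, 0, 3 and 5 members in the 8 comparisons in order, the same as without it.

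Depth and design limit what can be read. The WT libraries hold 5249001 to 8998524 counts, and the inhibitor libraries 24315817 or more. The KDAC8H143A libraries hold 11010771 to 17170522. Depth and mitochondrial rRNA content change together with the group in the drug comparisons and in KDAC8H143A against WT, so their parts cannot be told apart. Clone and mutation likewise cannot be told apart in KDAC6H611A and KDAC8H143A. The least abundant member, MTA3, rests on 92 to 179 counts per WT library, and each p measures the spread between these libraries only.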

Other observations

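Partners of the scaffolds outside the naming rule, chosen after their values were seen, add to the account. In KDAC8H143A GPS2, a small subunit of the NCoR complex, was higher by 1.31 on the log2 scale (SE 0.14, adjusted p = 8.93e-06 by edgeR) and stayed so with the GC and length correction (0.82). TBL1XR1, which links NCoR to protein turnover, rose with Tubastatin A (0.52, SE 0.04, adjusted p = 5.77e-09) and PCI-34051 (0.54, SE 0.06, adjusted p = 2.91e-07). It was at -0.67 in KDAC8H143A (SE 0.19, adjusted p = 7.53e-03) and at 0.21 there with the correction.

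Among SIN3 partners, the paralogues ARID4A and ARID4B were higher in KDAC8H143A (0.78 and 0.58), and the correction made these values larger (1.75 and 1.36). BRMS1 fell with Tubastatin A (-0.78, SE 0.09, adjusted p = 6.27e-07 by edgeR) and PCI-34051 (-0.71, SE 0.11, adjusted p = 2.05e-05), while its paralogue BRMS1L was lower in KDAC8H143A (-0.86, SE 0.20, adjusted p = 1.91e-03), a value that the correction moved to 0.07. In NuRD, GATAD2A fell and its paralogue GATAD2B rose with both inhibitors, at -0.40 and 0.33 with Tubastatin A and -0.47 and 0.28 with PCI-34051.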
